A study of Mus musculus with 6 samples.

Results

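Foxp3 and 9 transcription factors that bind it or act on its gene (Ikzf2, Ikzf4, Runx1, Cbfb, Foxo3, Foxp1, Nfatc1, Nfatc2 and Ets1) were read by 28 probes of an array with 41174 different probes. The members were chosen by name, as all probes annotated with 1 of these 10 symbols, and 26 of the 28 probes passed the filter on dim signals described below, against 22281 probes in all. Induced regulatory T (iTreg) cells of 3 miR-31 fl/fl CD4Cre mice, called cKO, were compared with those of 3 miR-31 fl/fl mice, the controls. In both genotypes the microRNA miR-31 lies between loxP sites, and only the cKO mice carry Cre, which the CD4 promoter drives in T cells and which removes miR-31. All mice were on the C57BL/6 background and 6 weeks old. By the labels, the starting population was sorted from spleen as naive CD4+CD25-Foxp3gfp-CD62Lhi T cells, so that cells with a Foxp3 reporter signal were gated out at the start. Every culture was kept for 4 days with TGF-β1 at 5 ng/ml and IL-2 at 40 ng/ml, on plate-bound anti-CD3 at 5 μg/ml with anti-CD28 at 2 μg/ml added, as the labels give it (the methods of the study state another IL-2 dose). No source used here describes a second sort, so each array may read a mixture of cells that did and did not turn on Foxp3.

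Foxp3 is the forkhead transcription factor that sets up and keeps the regulatory T-cell programme, and TGF-β together with IL-2 turns it on in activated naive CD4+ T cells. It works in large complexes. Runx1 with its partner subunit Cbfb binds the Foxp3 gene and the Foxp3 protein, the Ikaros family proteins Helios (Ikzf2) and Eos (Ikzf4) act as partners in gene activation and silencing, and the NFAT proteins Nfatc1 and Nfatc2, which the phosphatase calcineurin brings into the nucleus after T-cell receptor signalling, bind DNA beside Foxp3. Ets1 binds the Foxp3 gene, Foxo3 acts with Foxo1 to induce Foxp3, and Foxp1 is a related forkhead protein that keeps naive T cells quiescent.

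The sequence removed in the cKO mice gives 2 mature microRNAs on chromosome 4. They are shown here because the seed (bases 2 to 8, in capitals) is the part that pairs with target transcripts. The sequences and positions are those of RefSeq for build GRCm38.p6, on the minus strand, at chr4:88910614-88910635 for the 5p arm and chr4:88910577-88910599 for the 3p arm.
mmu-miR-31-5p: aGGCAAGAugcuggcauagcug
mmu-miR-31-3p: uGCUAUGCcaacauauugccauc
The 7-base site that pairs with the 5p seed, TCTTGCC, occurred in 0 of the 28 member probes and in 133 of all 41174 probes (0.323%), and the site for the 3p seed, GCATAGC, in 0 and 59 (0.143%). A probe covers 60 bases of a transcript, so these counts say nothing of the rest of it. No probe of the array is named for miR-31, and its deletion could not be checked here.

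The start of the Foxp3 gene is shown next, since the RUNX, NFAT, ETS and forkhead proteins among the members bind known DNA motifs. RefSeq lists 2 starts for Foxp3 in build GRCm38.p6, and the 250 bases upstream of each are chrX:7579426-7579675 and chrX:7580233-7580482, on the plus strand. Matches on either strand to the letters TGNGGT (RUNX), GGAAGT (ETS), GGAAAA (NFAT) and TGTTTNC (forkhead) are in capitals.
Foxp3, first start: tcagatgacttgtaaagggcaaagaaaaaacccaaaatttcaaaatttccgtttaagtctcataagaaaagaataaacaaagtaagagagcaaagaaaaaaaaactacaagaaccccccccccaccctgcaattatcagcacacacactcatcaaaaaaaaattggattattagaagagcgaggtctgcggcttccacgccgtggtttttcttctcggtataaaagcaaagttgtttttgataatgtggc
Foxp3, second start: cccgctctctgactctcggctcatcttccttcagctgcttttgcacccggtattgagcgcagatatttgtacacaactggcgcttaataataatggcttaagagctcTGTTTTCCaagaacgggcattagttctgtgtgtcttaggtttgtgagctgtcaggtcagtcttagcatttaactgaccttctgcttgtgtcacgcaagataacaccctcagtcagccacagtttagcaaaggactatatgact
The first window held 0 of the 4 motifs, and the second held 1 forkhead match that overlaps 1 NFAT match on the other strand. Over the 32851 RefSeq windows of the same length, 40.1% held the RUNX letters, 19.7% the ETS letters, 20.4% the NFAT letters and 17.8% the forkhead letters. These are matches of letters, not sites of binding. Of the 10 members, 6 have an entry in this table (Foxp3, Runx1, Cbfb, Foxo3, Foxp1 and Nfatc2), and Ikzf2, Ikzf4, Nfatc1 and Ets1 do not.

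One colour and 1 array were used for each culture, and a signal is given as its log2 relative to the 75th percentile of its array, so that 0 is the 75th percentile. That percentile lay between a brightness of 987 and 1148, 49.3% to 57.7% of spots per array were well above background, and 0 spots were saturated. A probe was tested when 3 or more of the 6 arrays had it well above background. One slide held all 3 cKO arrays and control array 1, and a second slide held control arrays 2 and 3. Slide and genotype are thus partly confounded, and the values against control array 1 alone are given below. Over the tested probes, Pearson's r ranged from 0.974 to 0.985 within cKO, from 0.984 to 0.989 within control and from 0.948 to 0.984 across genotypes. The number of arrays, 3 per genotype, limits the precision of every value.

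Foxp3, Runx1, Cbfb and Foxp1 had lower signals on all 3 cKO arrays than on any control array at their brightest probe, by 0.36 to 0.62 on the log2 scale, and Ikzf2 and 1 probe of Ikzf4 lay on the higher side in cKO. With p-values adjusted over all tested probes, 0 of the 26 member probes passed 0.05 in limma (adjusted p of 0.141 to 0.922, Benjamini-Hochberg), where 54 of the 22281 probes (0.242%) did, all of those at adjusted p of 0.0444 to 0.0497. At an unadjusted p under 0.05 the same fit counted 9 of the 26 member probes, 3 higher and 6 lower in cKO, against 23.0% of all probes. The unmoderated test named in the methods of the study gave 4 member probes at that unadjusted threshold and 0 after adjustment. The 6 lower ones stand beside 11.4% of all probes that were lower at the same threshold, and the groups did not overlap for 11 of the 26 (4 higher and 7 lower), beside 36.6% of all probes. The median log2 difference was -0.08 over the 26 member probes and -0.04 over all tested probes. At the brightest probe of each gene, 4 of the 9 tested members had an unadjusted p under 0.05, all 4 lower. Over 14357 genes taken the same way 23.5% did, 1728 higher and 1648 lower. The groups did not overlap for the same 4 members, beside 38.0% of those genes (2386 higher and 3069 lower). The median difference was -0.25 over the 9 members and -0.05 over the 14357 genes. The count of 9 member probes rested on the arrays: it was 0 with the slide as a term, 2 without control array 3, 4 without control array 2, 5 without cKO array 2 or cKO array 3, and 7 and 8 without cKO array 1 and control array 1. The 23.0% of all probes is from the fit as reported, and no such share is given for these other fits.

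**Figure D1:**
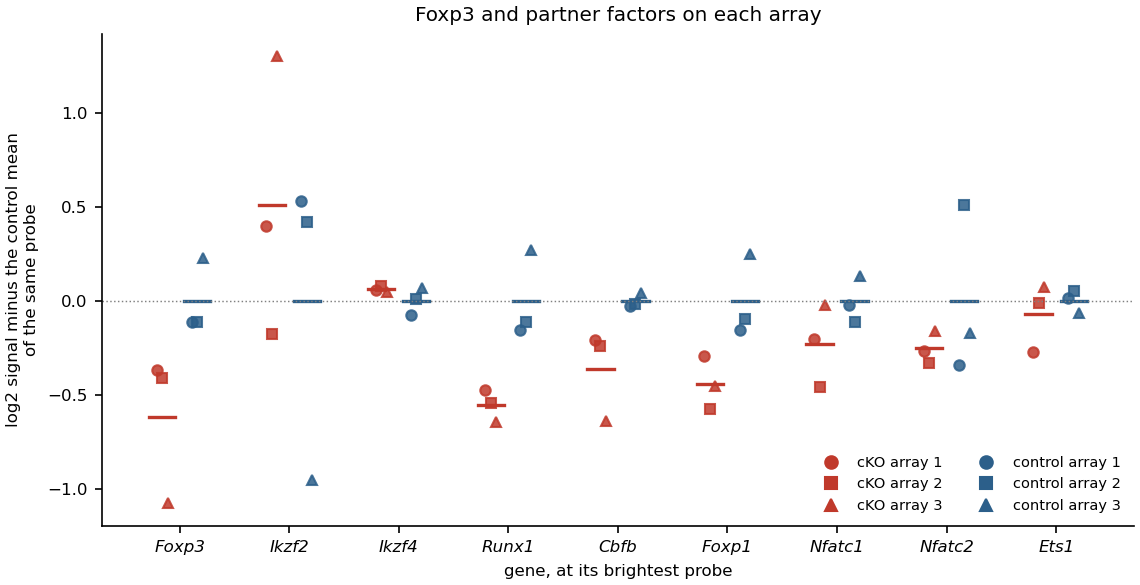
Log2 signal of the 9 members with a tested probe on each array, at the brightest probe of each gene, minus the mean of the 3 control arrays (y axis), with cKO arrays in red, control arrays in blue and a bar at each group mean. The red points of Foxp3, Runx1, Cbfb and Foxp1 all lie below the blue ones, and for Ikzf2 cKO array 3 is highest and control array 3 lowest.

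Foxp3 was lower in cKO cells by 0.62 on average, a 1.53-fold difference. Its 1 probe (NM_054039, mm9 chrX:7172158-7172217) was well above background on all 6 arrays. The log2 signal was 3.16, 3.12 and 2.45 on cKO arrays 1 to 3 and 3.42, 3.42 and 3.76 on control arrays 1 to 3. The groups did not overlap, cKO array 3 was the lowest of all and control array 3 the highest. Group means were 2.91 ± 0.40 and 3.53 ± 0.20 (SD, n = 3 each), and the log2 difference, cKO minus control, was -0.62 (standard error 0.22, 95% interval -1.16 to -0.07, unadjusted p = 0.0321, adjusted p = 0.192 in limma). The exact permutation test of 3 arrays against 3 gave its smallest possible 2-sided p, 0.10. Without cKO array 3 the difference was -0.39, and against control array 1, on the same slide, it was -0.50 with all 3 cKO arrays lower (unadjusted p = 0.195 in limma with the slide as a term). In cultures read as a whole, fewer cells that express Foxp3 and less Foxp3 RNA per cell cannot be told apart. The paper reports the other direction for cell shares: by flow cytometry of Foxp3 reporter cultures, iTreg differentiation was increased in cKO. Why this RNA signal and that share of cells differ in direction was not tested.

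Runx1 and Cbfb, the DNA-binding and the partner subunit of core-binding factor, both had lower signals in cKO. The brighter Runx1 probe (NM_009821, chr16:92604413-92604472) read 0.78, 0.71 and 0.61 on the cKO arrays and 1.09, 1.14 and 1.52 on the control arrays. The groups did not overlap, and control array 3 stood above the other two controls. The difference of -0.55 (standard error 0.15) had the smallest p of all member probes, 0.00847 unadjusted and 0.141 adjusted in limma, and was -0.40 against control array 1 alone.

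The second Runx1 probe reads another transcript form (NM_001111023) and spans an intron, from chr16:92614003 to 92644455 on the minus strand. It is printed here with the other 2 member probes that cross an exon junction, those of Foxp1 (chr6:98885382-98889719) and Ikzf4 (chr10:128071818-128072855), because they read across a splice junction. The sequences are those of the array's annotation, in lower case throughout.
Runx1, probe of NM_001111023: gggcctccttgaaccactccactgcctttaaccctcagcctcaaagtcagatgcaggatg
Foxp1, probe of NM_053202: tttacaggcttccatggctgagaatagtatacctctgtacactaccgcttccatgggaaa
Ikzf4, probe of NM_011772: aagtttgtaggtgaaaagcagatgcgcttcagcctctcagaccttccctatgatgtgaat
For this Runx1 junction the cKO arrays read -2.01, -1.82 and -1.93 and the control arrays -2.22, -1.65 and -1.41. The groups overlapped, with control array 1 lowest and control array 3 highest. The difference was -0.16 (standard error 0.22, adjusted p = 0.664 in limma), and it was 0.30 against control array 1 alone and 0.02 without control array 3. The lower Runx1 signal was therefore measured at 1 of its 2 probes.

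Both Cbfb probes (NM_022309) gave the same difference, -0.36. The brighter one (chr8:107741637-107741696) read 4.72, 4.69 and 4.29 on the cKO arrays and 4.90, 4.91 and 4.97 on the control arrays. The control arrays lay close together and above every cKO array, and cKO array 3 was again the lowest. Its standard error was 0.14, with an unadjusted p of 0.0437 and an adjusted p of 0.210 in limma. The dimmer one (chr8:107739851-107739910) read -2.39, -2.33 and -2.70 against -2.17, -2.11 and -2.07, also without overlap (adjusted p = 0.192). Without cKO array 3 the brighter probe's difference was -0.22, and against control array 1 alone the 2 probes gave -0.34 and -0.30.

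Foxp1 had lower signals in cKO at all 3 of its probes. The brightest, the junction probe printed above, read 3.95, 3.66 and 3.79 on the cKO arrays and 4.09, 4.15 and 4.49 on the control arrays. The groups did not overlap, control array 3 was the highest and here cKO array 2 the lowest. The differences at the 3 probes were -0.44, -0.42 and -0.38 (standard errors 0.15, 0.17 and 0.16), with adjusted p of 0.179, 0.207 and 0.225 in limma, and none of the 3 overlapped between groups. Against control array 1 alone they were -0.29, -0.23 and -0.16, each with all 3 cKO arrays below.

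Foxo3 was at the limit of detection. Its 2 probes, of NM_019740 at chr10:41905752-41905811 and of a cDNA at chr10:41900547-41900606, were well above background on cKO array 3 and on no other array, and neither was tested. The first probe read -4.65, -4.55 and -3.68 on the cKO arrays and -5.25, -5.03 and -5.35 on the control arrays, the second -5.35, -5.60 and -4.58 against -6.30, -5.96 and -6.55. All cKO values lie above all control values, but only 1 of the 3 cKO arrays measured the gene, so no fold is given.

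Ikzf2, which encodes Helios, was read by 5 probes, and the mean difference was above 0 at each of them, and at each of them smaller without control array 3. The brightest probe read 0.46, -0.11 and 1.36 on the cKO arrays and 0.59, 0.48 and -0.89 on the control arrays. The groups overlapped, cKO array 3 was the highest and control array 3 the lowest, the reverse of their places for Foxp3. The difference was 0.51 (standard error 0.52, adjusted p = 0.560 in limma), 0.03 without control array 3, 0.11 without cKO array 3 and -0.02 against control array 1 alone. The fourth probe had the largest difference of any member probe: it read -1.92, -1.28 and -1.07 on the cKO arrays and -2.03, -2.23 and -3.68 on the control arrays. Here the groups did not overlap, and the difference of 1.22 (standard error 0.47, adjusted p = 0.207) was 0.70 without control array 3 and 0.61 against control array 1. The other 3 probes gave 0.99, 0.64 and 0.92, and the groups did not overlap where the difference was 0.99 and 0.92. On all 5 probes the highest array was cKO 3 and the lowest control 3.

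**Figure D2:**
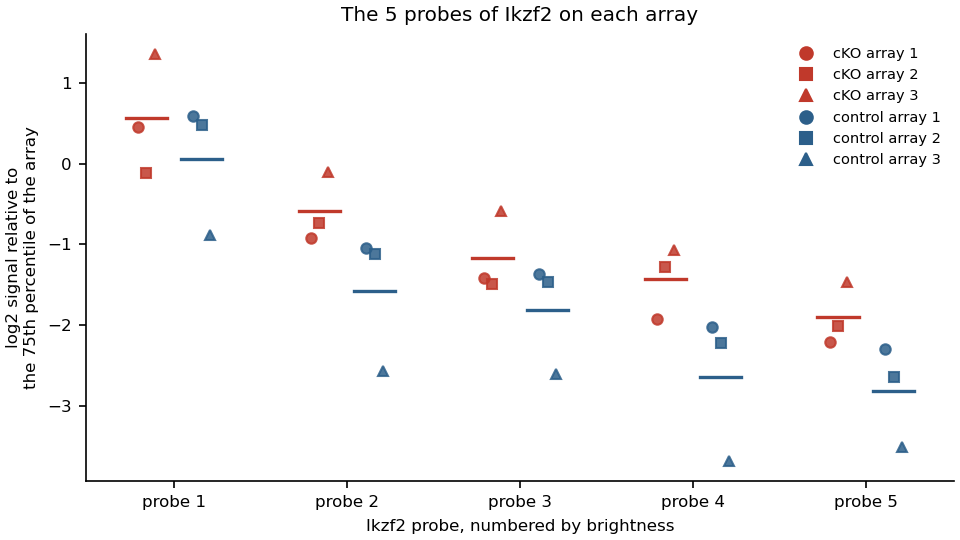
Log2 signal relative to the 75th percentile of the array (y axis) for the 5 probes of Ikzf2 (x axis, numbered from the brightest), with 1 point per array and a bar at each group mean. In every column cKO array 3 is the top point and control array 3 the bottom one.

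Ikzf4, which encodes Eos, differed little. Its brightest probe (NM_011772, chr10:128070580-128070639) read -0.19, -0.17 and -0.20 on the cKO arrays and -0.32, -0.24 and -0.18 on the control arrays, with overlap at control array 3. The difference was 0.06 (standard error 0.09, 95% interval -0.17 to 0.29; 0.02 without control array 1), and that of the second probe 0.02 (interval -0.27 to 0.32). The third, the junction probe printed above and the dimmest, read -2.60, -2.42 and -2.56 against -2.96, -2.69 and -2.83. It did not overlap between groups and had a difference of 0.30 (standard error 0.12, unadjusted p = 0.0398, adjusted p = 0.206 in limma), which was 0.44 against control array 1 alone. The 3 probes carry the same transcript name, and only the third had an interval that stayed above 0.

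The NFAT members overlapped between genotypes at every probe. The brighter Nfatc1 probe (NM_198429, chromosome 18) read 1.46, 1.20 and 1.64 on the cKO arrays and 1.64, 1.55 and 1.79 on the control arrays. The difference was -0.23 (standard error 0.15, 95% interval -0.58 to 0.13, adjusted p = 0.368 in limma). It was -0.11 without cKO array 2 and -0.33 without cKO array 3. Its second probe, for NM_016791, gave -0.22, or -0.07 without control array 3. Nfatc2 had 4 tested probes with differences of -0.25, 0.14, -0.05 and 0.02, all with overlapping groups and adjusted p of 0.512 to 0.913. At its brightest probe (chr2:168359185-168359244) the cKO arrays read -0.81, -0.88 and -0.71 and the control arrays -0.89, -0.04 and -0.72. Control array 2 stood alone there, and without it the difference was 0.00. The 2 dimmest probes were not well above background on control array 1.

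Ets1, a T-cell transcription factor, gave differences near 0 at the 3 probes of NM_011808. The brightest (chr9:32564860-32564919) read 3.85, 4.11 and 4.19 on the cKO arrays and 4.13, 4.17 and 4.05 on the control arrays. These overlapped, with a difference of -0.07 (standard error 0.12, 95% interval -0.37 to 0.23), or 0.03 without cKO array 1. The next 2 probes by brightness gave -0.08 and 0.05. The fourth, for which the array's annotation holds no position, read -0.50, 0.08 and -0.14 against 0.41, 0.25 and 0.07, overlapping narrowly, with a difference of -0.43 (standard error 0.18, unadjusted p = 0.0517, adjusted p = 0.221 in limma). It was -0.60 against control array 1 alone.

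**Figure D3:**
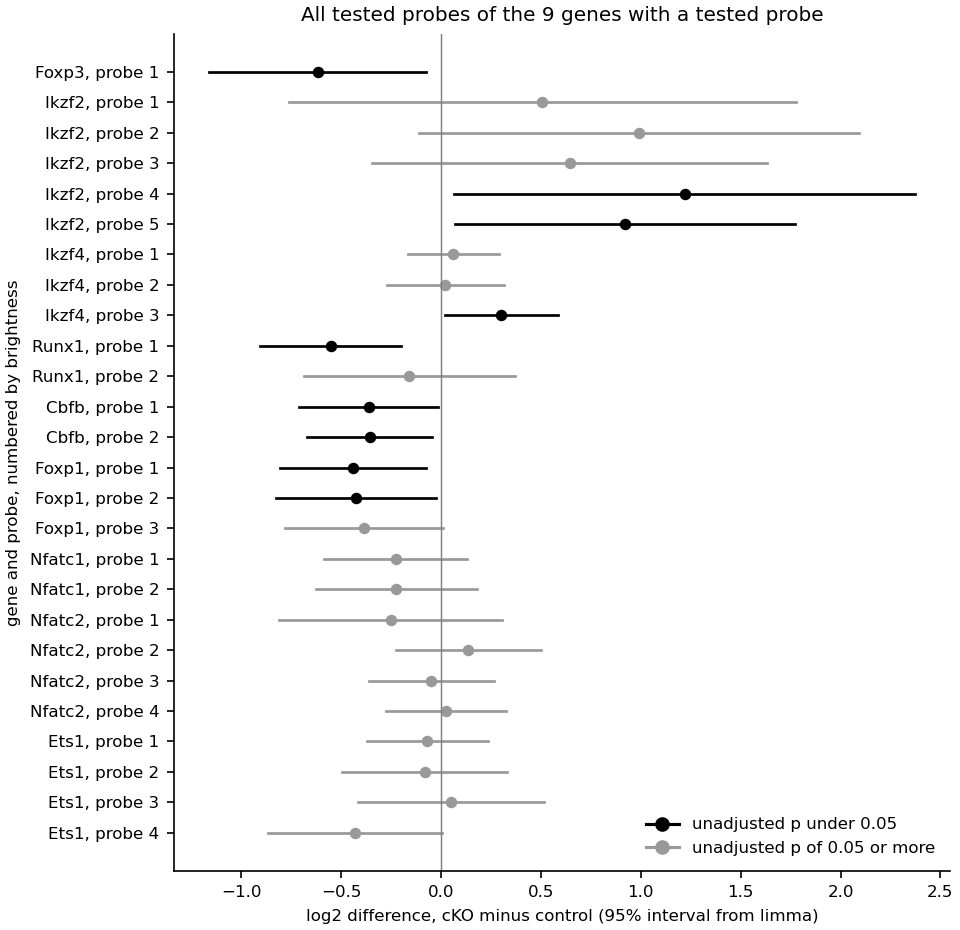
Log2 difference between cKO and control (x axis) with its 95% interval from limma for the 26 tested member probes (y axis, each gene's probes numbered from the brightest), in black where the unadjusted p is under 0.05. The probes of Foxp3, Cbfb and Foxp1 and the brighter one of Runx1 lie left of 0, those of Ikzf2 right of it with wide intervals, and those of Nfatc2 and of Ets1 other than the fourth around it.

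For Foxp3, Runx1, Cbfb and Foxp1 the cKO signal stayed below the control signal under each of the 20 other ways of processing that were tried. As the groups did not overlap at these probes, leaving out an array, weights, the slide, a filter or another test could not change the sign. Only another background correction or scaling, or the mean over a gene's probes, could have done so. The difference ranged from -0.74 to -0.36 for Foxp3, from -0.63 to -0.36 for Runx1, from -0.63 to -0.22 for Cbfb and from -0.61 to -0.29 for Foxp1. An unadjusted p under 0.05 was kept under 12, 17, 10 and 13 of the 20. The lowest adjusted p of the 4 genes was 0.060, for Runx1 with arrays weighted by their agreement, so that none passed in any setting.

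**Figure D4:**
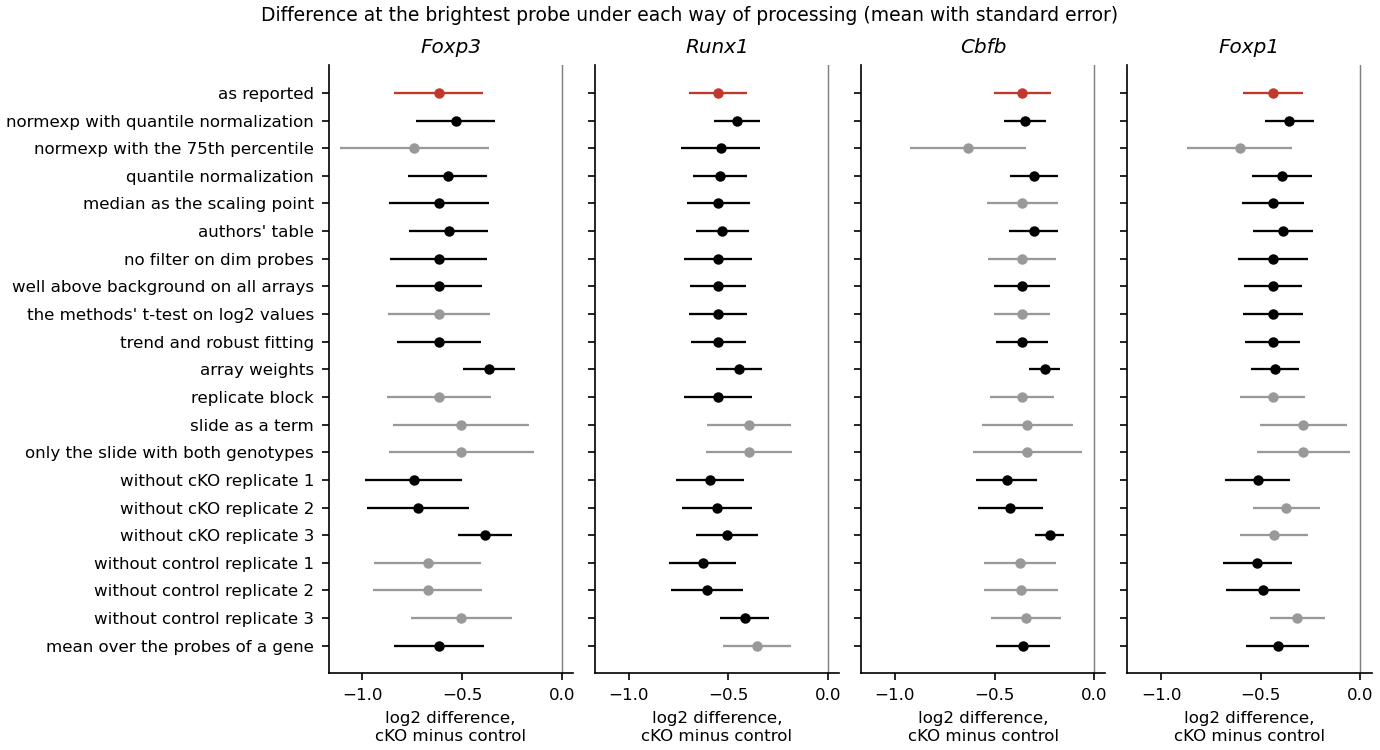
Log2 difference between cKO and control (x axis) with its standard error at the brightest probe of Foxp3, Runx1, Cbfb and Foxp1, as reported (red) and under each of the 20 other ways of processing (y axis; black where the unadjusted p is under 0.05, grey where it is not). All points lie below 0, and the rows that use the slide are grey in all 4 panels.

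The wider network around Foxp3 was described by 5 gene lists, each gene at its brightest probe. Taken this way, 23.5% of all 14357 genes had an unadjusted p under 0.05 and 38.0% did not overlap between groups. With the slide as a term the lists counted 0 regulators, 2 cofactors, 1 calcineurin pathway gene, 3 Treg signature genes and 2 genes repressed by Foxp3 at that threshold. The 23.5% is from the fit as reported, and no such share is given for the slide term or with an array left out. Of 24 other regulators of Foxp3 expression, 23 were tested and 0 passed the adjusted threshold. The median difference was 0.08, beside -0.05 over all 14357 genes, 6 of the 23 did not overlap between groups, and 1 had an unadjusted p under 0.05. This was Cebpb, a transcription factor that protects Foxp3 expression against inflammatory cytokines, with 1.38, 1.67 and 1.40 on the cKO arrays and 1.85, 1.76 and 2.09 on the control arrays. Its difference was -0.42 (standard error 0.14, adjusted p = 0.179 in limma), and its second probe gave -0.41. The next smallest p-values belonged to Klf10, a TGF-β-induced factor (-0.30), Uhrf1, which recruits the DNA methyltransferase Dnmt1 (-0.51), and Bach2, a repressor that favours regulatory T cells (0.29), with adjusted p of 0.233 to 0.269. The Uhrf1 difference was -0.22 without cKO array 3, and its second probe gave -0.63 (unadjusted p = 0.037, adjusted p = 0.20 in limma). The count of 1 was 4 without cKO array 1, 2 without cKO array 2, 3 without cKO array 3 and 0 without control array 1. Foxo1, the closest relative of Foxo3 in this role, was well above background on all 6 arrays and differed by 0.10 (standard error 0.11), by 0.16 when cKO array 2 was left out and by 0.06 when cKO array 3 or control array 2 was left out.

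Among 24 other cofactors of Foxp3, 23 were tested, 0 passed the adjusted threshold, and at an unadjusted p under 0.05 there were 4 higher and 1 lower, with a median of 0.08. Runx3, the sister gene of Runx1 that also pairs with Cbfb, lay the other way from Runx1. It read 2.82, 2.73 and 3.12 on the cKO arrays and 2.45, 2.29 and 1.86 on the control arrays. The groups did not overlap, control array 3 was the lowest, and the difference was 0.68 (standard error 0.19, unadjusted p = 0.0113, adjusted p = 0.149 in limma), with 0.65 at its second probe and 0.43 with the slide as a term. Hdac7, a histone deacetylase found in Foxp3 complexes, was 0.92 higher (standard error 0.19, adjusted p = 0.108), with 0.83 at its second probe. Hif1a, the oxygen-regulated factor that binds Foxp3 and can promote its breakdown, was 0.66 higher (standard error 0.17, adjusted p = 0.135). Gata1 had the largest difference of the list, -1.56 (standard error 0.35, unadjusted p = 0.00422 in limma, not past the adjusted threshold), with group means of -1.72 ± 0.69 and -0.17 ± 0.26 (SD, n = 3 each). Rora, a nuclear receptor named after its value was seen, was the fourth higher gene, by 0.82 with a standard error of 0.32. Its unadjusted p was 0.0393 and its adjusted p 0.204 in limma. It read 0.49, 1.56 and 1.66 on the cKO arrays and 0.36, 0.40 and 0.49 on the control arrays, so the groups overlapped narrowly at cKO array 1. Ikzf1, the founding Ikaros gene, differed by -0.02 (standard error 0.19) and Nfatc3 by 0.12 (standard error 0.13), which was 0.18 when cKO array 2 was left out and 0.0005 when cKO array 3 was.

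The calcineurin and NFAT pathway controls how much NFAT reaches the nucleus. Of its 25 listed genes, 23 were on the array and 20 tested, with a median of 0.01, 0 past the adjusted threshold and 1 with an unadjusted p under 0.05. That gene, the calcium sensor Stim1, was 0.31 higher at its brighter probe (standard error 0.10, adjusted p = 0.163 in limma) and -0.97 at its dimmer one (standard error 0.52, adjusted p = 0.298), so its probes disagree in direction. The calmodulin gene Calm2 differed by -0.31 (adjusted p = 0.240), and Chp1, a calcineurin-like protein, by 0.38 (adjusted p = 0.252). Without cKO array 3 these were -0.19 and 0.23. At dimmer probes Calm2 gave -0.41 and Chp1 0.43, 0.65 and 0.26. Their unadjusted p was 0.013, 0.042, 0.020 and 0.30 in limma, with adjusted p of 0.156 to 0.496. The count of 1 was 3 without cKO array 1 or cKO array 2 and 0 without control array 1 or control array 2.

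Treg signature genes spread widely in both directions. Of 30 genes, 28 were on the array and 27 tested (Ikzf2 is 1 of them). At an unadjusted p under 0.05 there were 6 higher and 3 lower, 9 did not overlap between groups, 0 passed the adjusted threshold, and the median was 0.39. That median was 0.07 without control array 3, 0.25 without cKO array 1 and turned to -0.02 with the slide as a term, and the count of 9 ranged from 6 to 13 with 1 array left out. Fgl2, a secreted mediator of suppression, read -1.30, -1.13 and -1.28 on the cKO arrays and -2.58, -3.36 and -3.67 on the control arrays, a difference of 1.96 (standard error 0.28, adjusted p = 0.066 in limma). Ebi3, a subunit of IL-35, was 1.19 higher (adjusted p = 0.095) and Ctla4, the inhibitory receptor of regulatory T cells, 0.94 higher (adjusted p = 0.136). Gpr83, a receptor enriched in regulatory T cells, lay on the other side: it read 2.77, 2.52 and 1.43 on the cKO arrays and 4.03, 4.26 and 4.44 on the control arrays, a difference of -2.004 (standard error 0.36, adjusted p = 0.0897) and of -2.38 at its second probe. Il2ra, the high-affinity IL-2 receptor chain, overlapped between groups, with 5.14, 4.53 and 3.81 against 4.95, 4.98 and 5.24 and a difference of -0.56 (standard error 0.33, adjusted p = 0.332), or -0.22 when cKO array 3 was left out and -0.88 when cKO array 1 was. Its other probes gave -0.22, -0.66 and -0.03 (adjusted p of 0.285 to 0.917 in limma). Tnfrsf18, the costimulatory receptor GITR, differed by 0.40 (standard error 0.21, adjusted p = 0.290), or 0.20 without control array 3.

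Of 18 genes known to be repressed by Foxp3, 16 were tested, with a median of 0.23, 3 higher and 0 lower at an unadjusted p under 0.05 and 0 past the adjusted threshold. The median was 0.11 without cKO array 3, 0.35 without cKO array 2 and 0.08 with the slide as a term, and the count was 2 without cKO array 2, cKO array 3 or control array 2. Without cKO array 3, and with the slide as a term, these 2 were 1 higher and 1 lower. Il7r, the IL-7 receptor, read 2.61, 2.88 and 4.12 on the cKO arrays and 2.11, 1.65 and -0.25 on the control arrays. The groups did not overlap, with cKO array 3 highest and control array 3 lowest, and the difference was 2.04 (standard error 0.69, adjusted p = 0.1795 in limma), or 1.33 without control array 3. Ifng, the TH1 cytokine interferon-γ, was 1.41 higher (standard error 0.57, adjusted p = 0.216), but 0.76 without control array 3 and 0.35 with the slide as a term. Actn1, an actin-binding protein, was 0.55 higher (standard error 0.11, adjusted p = 0.098). Igfbp4, which binds insulin-like growth factors, differed by -0.34 (adjusted p = 0.230), or -0.21 without cKO array 3. Its second probe gave -0.55 (unadjusted p = 0.027, adjusted p = 0.185 in limma). Il2 read -2.54, -1.88 and -3.78 against -2.17, -2.01 and -3.20 and overlapped, with a difference of -0.27 (standard error 0.55), which was 0.25 without cKO array 3.

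**Figure D5:**
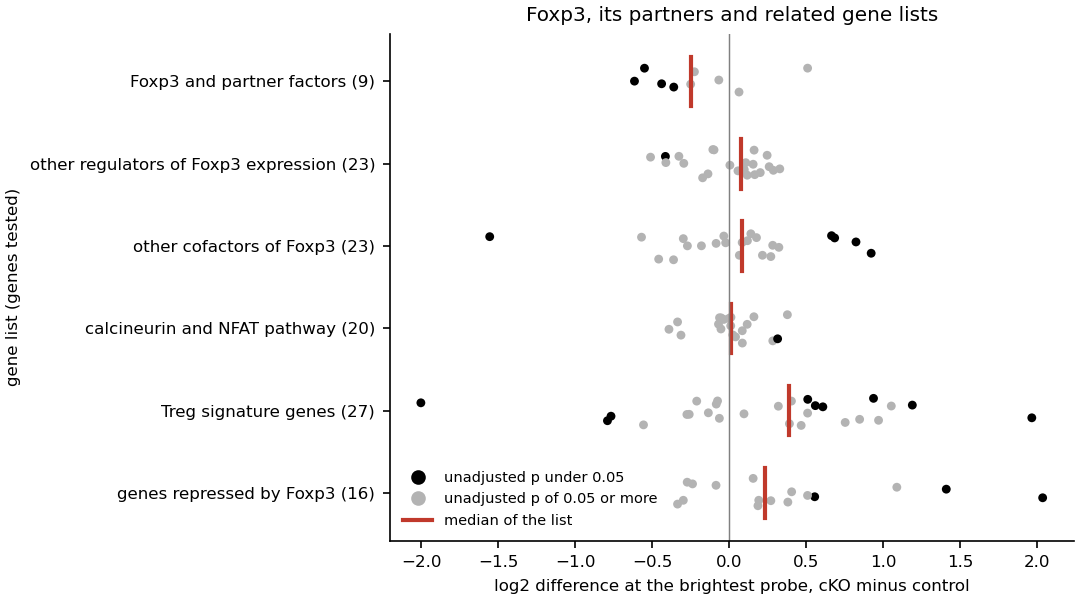
Log2 difference between cKO and control at the brightest probe (x axis) for each tested gene of the 10 members and of the 5 lists (y axis, with the number of genes tested), 1 point per gene, in black where the unadjusted p is under 0.05, with a red bar at each median. The members' median is -0.25, the medians of the lists lie between 0.01 and 0.39, and no point passed the adjusted threshold.

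The array pattern of Foxp3 was shared with other genes. Over the 6 arrays, among 3743 tested probes that varied at least as much as Foxp3, the genes with the highest Pearson r with it were Tmem238 (0.999), Mob3b (0.998) and Adpgk (0.996), given as a description of these arrays. The points share their arrays, slides and scaling. Each of the 3 was lowest on cKO array 3 and highest on control array 3, as Foxp3 was, with differences of -1.20, -0.69 and -0.82. This follows from their selection by r on the same arrays.

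The labelled cells were checked against cell type markers. All 10 T-cell markers were well above background on every array, and their summed level was 333 to 397 times the 75th-percentile signal on the cKO arrays and 315 to 329 on the control arrays. Among B-cell markers Pax5 and Ebf1, among myeloid markers Adgre1 and Csf3r, among erythroid markers Alas2 and Epb4.2, and among epithelial markers Krt8 and Krt19 were well above background on 0 of 6 arrays, and the summed levels of these 4 lists reached at most 1.98. Others of these lists were detected: Hbb-b1, a haemoglobin gene, and Epcam and Cdh1, epithelial adhesion genes, were well above background on all 6 arrays and higher in cKO without overlap, by 2.10, 0.61 and 1.01 (unadjusted p of 0.0165, 0.0139 and 0.00884 in limma, adjusted p of 0.163, 0.157 and 0.143). Hba-a1, another haemoglobin gene, lay the other way, with -5.14, -5.11 and -6.57 on the cKO arrays and -4.07, -3.80 and -3.32 on the control arrays. It was well above background on 0 cKO and 2 control arrays, and Hbb-b1 was the 1 erythroid marker tested. The erythroid list summed to 0.543 to 1.14 on the cKO arrays and 0.252 to 0.431 on the control arrays, and the epithelial list to 1.35 to 1.98 and 0.821 to 0.928, both without overlap. Of the B-cell list, Cd79b and Blnk were well above background on all 6 arrays and Cr2 on 3 cKO arrays and 1 control array. Of the myeloid list, Cd68 was so on all 6 arrays and Csf1r on 2 arrays of each genotype. The B-cell and myeloid sums overlapped, and Cd68 was the 1 gene of these 2 lists with an unadjusted p under 0.05. The 7 CD8 T and NK markers summed to 6.81 to 14.8 on the cKO arrays and 6.79 to 8.81 on the control arrays. Of them, Cd8a, Cd8b1, Klrd1, Klrk1 and Eomes were well above background on all 6 arrays, and Ncr1 on 2 cKO and 0 control arrays. Klrd1 and Klrk1 were 1.88 and 1.71 higher in cKO (unadjusted p of 0.0371 and 0.0388, adjusted p of 0.201 and 0.204 in limma). The groups overlapped for both. Cd8a differed by -0.86 (adjusted p = 0.254 in limma), Cd8b1 by -0.18 and Eomes by 0.17, also with overlap. The 5 TH1 markers (Tbx21, Ifng, Cxcr3, Il12rb2 and Stat4) summed to 50.9 to 72.4 on the cKO arrays and 14.8 to 46.6 on the control arrays, without overlap, and 2 of the 5 had an unadjusted p under 0.05. The 5 TH2 markers summed to 8.11 to 10.9 and 7.29 to 9.08, and the 5 TH17 markers, of which Il17a, Il23r and Il22 were above background on 0 arrays, to 0.317 to 0.859 and 0.485 to 1.63. The T-cell, TH1, erythroid and epithelial sums were thus higher in cKO while the Foxp3 signal was lower, and their part in the Foxp3 difference was not tested. Single genes could differ from their sum: Cd3e, a T-cell marker, was 0.28 lower in cKO without overlap. The slide limits these sums too. Ifng read 5.41, 5.15 and 5.61 on the cKO arrays and 5.04 on control array 1, but 4.22 and 2.68 on control arrays 2 and 3.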

How the data were processed

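RNA (0.5 μg) from the iTreg culture of each of 3 cKO and 3 control mice was labelled with Cy3 and hybridized to a one-colour Agilent whole mouse genome array of 45018 spots, 43379 of them not controls. The spot intensity values deposited by the authors are linear and background-subtracted within each array by Agilent Feature Extraction (version 10.7.3.1 per the file headers, 9.1 per the submitters' processing notes), and were not normalized between arrays. A log2 table deposited by the authors has nearly equal distributions on all arrays. Its method is not given in the sources used here, and it served as an alternative. All 6 of its columns were assigned.

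Outlier spots (123 to 140 per array) were dropped, the log2 processed signal minus the 75th percentile of the array was taken, and the spots of a probe were averaged. A probe entered the comparison when at least 3 of 6 arrays had it well above background. Groups were compared with limma 3.58.1 (lmFit, eBayes, R 4.3.3), with Benjamini-Hochberg adjustment over all 22281 probes and a threshold of 0.05. Intervals are 95% intervals of limma. Single probes were also compared by the exact permutation test. A gene's probes are listed from the brightest, by the mean over all arrays. The steps were tested on simulated data. Tables and plots were made with Python 3.11.15, pandas 2.3.3, numpy 2.4.6, scipy 1.17.1 and matplotlib 3.10.9. Probe positions are on mm9, as the array's annotation gives them.

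The members and gene lists were chosen with earlier results of these data known. Named are all members' probes, the 4 genes of each list with the smallest unadjusted p (1 of them is not reported here), 10 genes given whatever their values (Runx3, Ikzf1, Foxo1, Nfatc3, Il2ra, Ctla4, Tnfrsf18, Gpr83, Il2 and Il7r), and the 3 genes most correlated with Foxp3. Of the listed genes, Nron, Dyrk2, Lrrc32 and Tigit were not found by symbol on the array. Labels do not state whether replicates were run in separate experiments, so p-values measure the spread between these 3 mice per genotype. Alternatives, tried one at a time, were background correction by normexp (offset 50) followed by the quantile or the 75th-percentile scaling, quantile normalization alone, median scaling, the authors' table, no filter, detection required on all 6 arrays, the methods' t-test, trend and robust fitting, array weights, the replicate number as a block, the slide as a term, the slide with both genotypes alone, each array left out, and the mean over a gene's probes.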

Additional observations from a re-analysis of the deposited data

How the results depend on the processing

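With the 54 probes past the adjusted threshold as reported, normexp with quantile normalization gave 99, quantile normalization and the authors' own values 28 each, scaling to the median 77, detection on all 6 arrays 174, trend and robust fitting 105 and array weights 2205. Normexp with the 75th percentile, no filter on dim probes, the methods' t-test, the slide as a term and the slide with both genotypes alone gave 0, and leaving out 1 array gave 0 to 1. Of the member probes, 0 passed that threshold in any of these settings. Their count at an unadjusted p under 0.05, 9 as reported, was 2 under normexp with the 75th percentile, 4 under the methods' t-test, 0 with the slide as a term or that slide alone, 2 to 8 with 1 array left out, and 7 to 11 otherwise apart from the block. A share of all probes at that threshold is given for the fit as reported only. With the replicate number as a block the counts were 0 probes in all and 1 member probe, and the Foxp3 difference stayed at -0.62 (adjusted p = 0.327 in limma). Same-numbered deviations from the group means correlated at -0.14, 0.01 and -0.19. The labels do not state whether same-numbered cultures were run together. With control arrays 2 and 3 on another slide, these correlations cannot decide it. Normexp with the 75th percentile moved the median difference of all probes from -0.04 to 0.11, so that values under it are read against that shift.

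Differences that changed sign, none of them past the adjusted threshold, were these. Ikzf2 at its brightest probe gave -0.26 with array weights and -0.023 with the slide as a term or that slide alone. Nfatc2 at its brightest probe gave 0.087 with the slide either way, and Ets1 0.026 under normexp with quantile normalization. With 1 array left out, Ikzf2 ranged from 0.03 to 0.85, Nfatc2 from -0.42 to 0.0039 and Ets1 from -0.14 to 0.032. For the dimmer probes, normexp with the 75th percentile gave 0.17 for probe 2 of Runx1, 0.27 for probe 2 of Cbfb, 0.012 for probe 3 of Foxp1, 0.67 for probe 3 of Nfatc2 and -0.14 for probe 3 of Ets1, numbered from the brightest. The slide, as a term or alone, gave 0.30 for probe 2 of Runx1 and 0.15 for probe 3 of Nfatc2, and array weights gave 0.022 and -0.0925 for probes 2 and 3 of Ets1. With 1 array left out, probe 2 of Ikzf4 ranged from -0.052 to 0.0854, probe 2 of Runx1 from -0.39 to 0.017, probes 3 and 4 of Nfatc2 from -0.15 to 0.044 and -0.063 to 0.10, and probes 2 and 3 of Ets1 from -0.23 to 0.060 and -0.14 to 0.21. Among genes of the lists, normexp with the 75th percentile gave -0.13 for Foxo1, -0.11 for Nfatc3 and 0.46 for Il2. Array weights gave 0.0029 for Il2 and 0.19 for Ikzf1, and the mean over its probes gave -0.33 for Stim1. Ikzf1 was 0.0012 under normexp with quantile normalization, 0.0148 under quantile normalization, 0.0155 in the authors' values and 0.0060 with the slide either way. With 1 array left out, Ikzf1 ranged from -0.13 to 0.14 and Il2 from -0.70 to 0.25. Values that kept their sign but moved by over 1.5 times included, under normexp with the 75th percentile, 0.098 for Bach2, -0.90 for Gata1, 0.13 for Stim1, -0.56 for Calm2, 0.18 for Chp1 and 0.18 for Tnfrsf18, and, with array weights, -0.36 for Foxp3, -0.22 for Cebpb and -0.29 for Uhrf1. The cause was not tested.

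Fgl2 passed the adjusted threshold under normexp with quantile normalization (0.97), detection on all 6 arrays, trend and robust fitting (both 1.96) and array weights (2.04). Array weights, which counted control array 2 most and cKO array 3 least, also brought Gpr83, Ebi3, Actn1, Hdac7, Gata1, Hif1a, Ctla4 and Stim1 past it. The medians of the lists ranged over the 20 alternatives from -0.13 to 0.13 for regulators of Foxp3, -0.02 to 0.16 for cofactors, -0.10 to 0.02 for the calcineurin pathway, -0.02 to 0.52 for Treg signature genes and 0.08 to 0.35 for genes repressed by Foxp3.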
